A study of Mus musculus with 2 samples.

Results

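Enzymes that cut the extracellular matrix and the cell surface were described by the RNA of 9 genes in phagocytes of the optic nerve of the mouse. The genes were fixed by name, 9 of the 31053 gene rows of the count table, and all 9 were found there: the metalloproteinases Mmp12, Mmp14, Adamts1, Adam8, Adam10 and Adam17, the inhibitor Timp2, and Plau and Plaur of the plasminogen system. Single cells were captured from wildtype 129S1/SvlmJ mice of both sexes. One group had an optic nerve crush at age 8 weeks and was sampled 2 weeks after it, and the other had no injury; both were 10 weeks old at collection. The cells were kept by the authors as macrophages or microglia. Each group was 1 library, of 727 injured and 51 uninjured cells. The sources used here do not give how many mice or nerves a library pooled. Cells of 1 library are not replicates, so no difference between the groups has a replicate check and no test was made.

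Matrix metalloproteinases (Mmp) are secreted or membrane-bound zinc enzymes that digest collagens, elastin and other matrix proteins, and tissue inhibitors of metalloproteinases (Timp) bind and block them. The Adam enzymes are membrane-bound relatives that shed cytokines, receptors and adhesion proteins from the cell surface, and Adamts enzymes are secreted relatives that cut proteoglycans. Urokinase, encoded by Plau, binds its receptor Plaur on the cell surface and turns plasminogen into plasmin, a broad protease that digests fibrin and fibronectin and can activate metalloproteinases. Macrophages are a main source of Mmp12 and urokinase in injured tissue.

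The injured library held 3697992 unique molecular identifiers (UMIs, each a captured transcript), 42.3 times the 87499 of the uninjured library. Cells had a median of 1123 UMIs in the injured and 888 in the uninjured library, and no barcode occurred in both. Levels are given as counts per 1000000 UMIs (CPM). Intervals are exact 95% intervals that cover counting error only. In the uninjured library 3 UMIs stand for 34.3 CPM, which is used as the floor for a gene with none. The cells were labelled as microglia or macrophages, and homeostatic microglial markers summed to 5423 CPM after injury and 8709 CPM without it, with all 8 seen in each library. The 8 oligodendrocyte markers summed to 1174 and 8400 CPM, the 6 astrocyte markers to 173 and 1074 CPM, the 6 fibroblast markers to 25.1 and 34.3 CPM, and the 6 endothelial markers to 71.7 and 114 CPM. Among the endothelial markers Cdh5 was at 0 in both libraries, and of the astrocyte markers Aqp4, Slc1a2 and Aldoc were at 0 in the uninjured one. The part of such RNA in the values below was not tested.

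Of the 9 genes, 5 were higher in the injured library by a ratio of at least 1.5 after 10 CPM had been added to both levels, namely Mmp12, Adam8, Timp2, Plau and Plaur. By the same rule Adamts1 and Adam10 were lower, and Mmp14 and Adam17 lay between. Over the 4021 genes with a UMI in 10% or more of either library's cells, 32.8% were higher and 21.8% lower. Over all 14407 genes with a UMI the share of higher genes was 20.7%. The median log2 ratio was 1.51 for the 9 genes and 0.17 for all compared genes. All 9 were seen in 5% or more of the cells of a library and 8 in 10% or more, all but Mmp12. Mmp12, Adam8 and Plau reached 5% in the injured library alone, where they are higher.

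**Figure D1:**
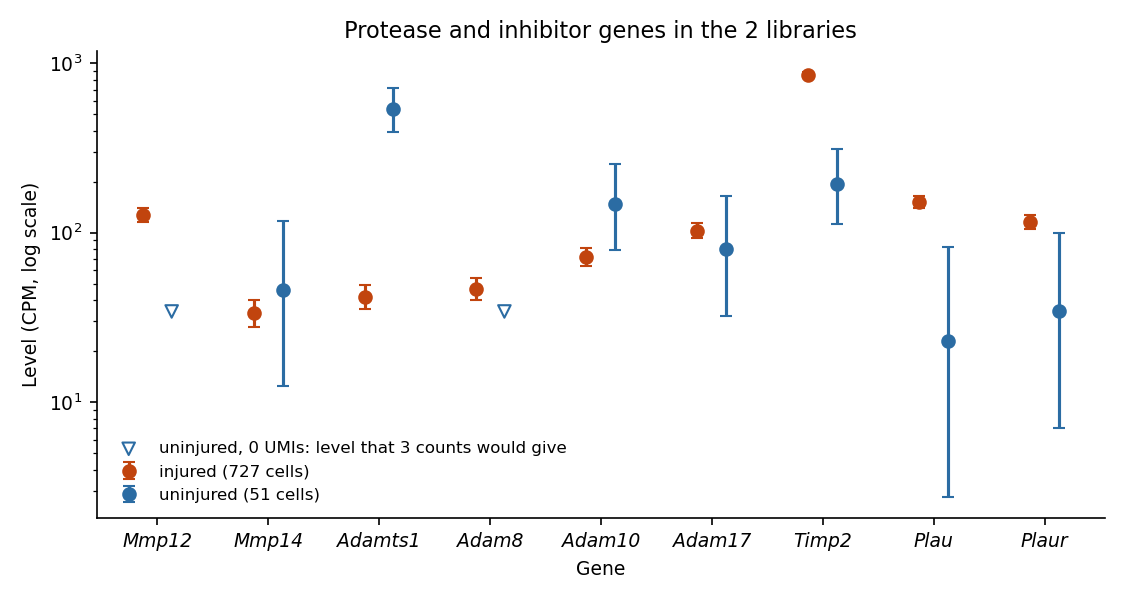
Levels of the 9 genes in CPM on a log axis, with exact 95% Poisson intervals, in the injured library (red) and the uninjured library (blue). Open triangles mark the 34.3 CPM that 3 uninjured UMIs would give for the genes with none. Timp2, Plau and Plaur sit higher in the injured library and Adamts1 sits far lower, at 41.9 against 537 CPM.

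Mmp12 encodes macrophage elastase. Its level was 127 CPM (116 to 139) in the injured library, from 470 UMIs, and no UMI was found among the uninjured cells. The injured level was 3.71 times the floor, and the lower end of the interval of the ratio was 3.003. The uninjured total behind both includes 1 cell rich in haemoglobin, which raises that lower end. A UMI was found in 39 injured cells, or 5.36% (3.84 to 7.26). The gene lies on chromosome 9 from 7344381 to 7369499 on the plus strand of mm10 (protein-coding, GENCODE vM21), and its span overlaps that of Mmp1b, another metalloproteinase gene on the opposite strand. The sources used here do not say whether counting used strand, so reads of overlapping genes may not have been told apart.

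Promoter windows are shown for Mmp12 and Plaur, both higher after injury, because theirs were the windows of these genes that held the AP-1 motif TGANTCA, bound by Fos and Jun proteins. RefSeq windows (GRCm38.p6, from 250 bases before to 50 after a transcript start) were present for 8 of the 9 genes, 9 windows in all, of which 2 held the motif on either strand, against 7.81% of 32851 windows of the same length. The Mmp12 window is that of the second of its transcript starts, chr9:7347124-7347423 on the plus strand, and the match begins 44 bases before the start. The Plaur window is chr7:24462233-24462532 on the plus strand, with the match 69 bases before the start. Capitals mark the motif.
Mmp12: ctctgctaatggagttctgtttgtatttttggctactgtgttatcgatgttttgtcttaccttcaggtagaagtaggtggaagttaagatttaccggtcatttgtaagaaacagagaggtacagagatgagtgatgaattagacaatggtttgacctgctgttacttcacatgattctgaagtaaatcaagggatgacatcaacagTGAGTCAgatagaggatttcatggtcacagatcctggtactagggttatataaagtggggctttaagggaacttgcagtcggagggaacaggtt
Plaur: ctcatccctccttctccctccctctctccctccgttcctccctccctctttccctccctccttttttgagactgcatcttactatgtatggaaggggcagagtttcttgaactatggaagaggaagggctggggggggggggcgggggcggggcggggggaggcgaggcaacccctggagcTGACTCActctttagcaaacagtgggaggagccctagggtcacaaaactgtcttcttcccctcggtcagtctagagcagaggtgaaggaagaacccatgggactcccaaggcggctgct
The motif TGACGTCA, bound by CREB proteins, was in 0 of the 9 windows and in 1.79% of all windows. The motif GAGGAAGT, bound by the myeloid factor PU.1, was in 1 of the 9, the first Mmp12 window, and in 3.20% of all. A match is a description of these letters and not a measured binding site.

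Both genes of the plasminogen branch were higher in the injured library. Plau was at 153 CPM (140 to 166, 564 UMIs) after injury and 22.9 CPM (2.77 to 82.6, 2 UMIs) without it, a ratio of 6.67 (1.84 to 55.2). Plaur was at 116 CPM (106 to 128) and 34.3 CPM (7.07 to 100.2, 3 UMIs), a ratio of 3.39 (1.15 to 16.5). Both intervals lie above 1, but they rest on 2 and 3 uninjured UMIs. With each cell given equal weight Plaur was at 73.1 and 48.2 CPM, a log2 ratio of 0.51 that no longer passed the ratio of 1.5. Plau lies on chromosome 14 from 20836660 to 20843385 (plus strand) and Plaur on chromosome 7 from 24462484 to 24475968 (plus strand).

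Timp2, which blocks metalloproteinases and also helps Mmp14 activate the precursor of Mmp2, had 3174 injured and 17 uninjured UMIs. Its level was 858 CPM (829 to 889) against 194 CPM (113 to 311), 4.42-fold higher after injury (2.75 to 7.59). With equal weight per cell the levels were 663 and 280 CPM. The share of cells with Timp2 was 53.5% after injury (49.8 to 57.2) and 25.5% without it (14.3 to 39.6), and with every cell thinned to 500 UMIs in 25.7% (22.6 to 29.1) and 6.12% (1.28 to 16.9). Thinning kept all 727 injured and 49 uninjured cells. The gene spans 118301069 to 118355740 on the minus strand of chromosome 11, with Cep295nl inside that span on the same strand.

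Mmp14 encodes a membrane-bound collagenase that activates Mmp2. It was at 33.5 CPM (27.9 to 40.0, 124 UMIs) in the injured library and 45.7 CPM (12.5 to 117, 4 UMIs) in the uninjured one, a ratio of 0.73 (0.28 to 2.73). The interval holds 1, so no direction can be read at this depth. The log2 ratio of -0.36 turned to 0.39 without 1 uninjured cell that held 2 of the 4 UMIs. Mmp2 itself had 12 injured and 2 uninjured UMIs.

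The 3 Adam genes differed in direction. Adam8, an Adam gene of myeloid cells, was at 46.5 CPM (39.8 to 54.0, 172 UMIs) in injured cells and had no uninjured UMI. Its injured level was 1.36 times the floor, and the lower end of the interval of the ratio was 1.09. The uninjured total behind both includes 1 cell rich in haemoglobin, of 11100 UMIs, which raises that lower end. The interval was not computed without it. Adam10, which cuts Notch and many adhesion proteins, was at 71.9 CPM (63.5 to 81.1, 266 UMIs) and 149 CPM (79.1 to 254, 13 UMIs), 2.07-fold lower after injury (1.09 to 3.59). Adam17, which releases tumour necrosis factor from the cell surface, was at 103 CPM (92.9 to 114, 381 UMIs) and 80.0 CPM (32.2 to 165, 7 UMIs), a ratio of 1.29 (0.62 to 3.23) whose interval holds 1. Without the uninjured cell with 3 of the 7 UMIs the log2 ratio of Adam17 went from 0.33 to 0.98, which passes as higher. Adam8 lies on chromosome 7 (139978932 to 139992562, minus strand) and overlaps the noncoding Gm16201 on the opposite strand. Adam17 on chromosome 12 (21323509 to 21373632, minus strand) overlaps Iah1 on the opposite strand, so their counts are uncertain to that extent.

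Adamts1 was the member with the lower level after injury by the widest margin. It was at 41.9 CPM (35.6 to 49.1, 155 UMIs) after injury and 537 CPM (395 to 714, 47 UMIs) without it, 12.8-fold lower (9.04 to 17.9). The share of cells with a UMI was 6.19% (4.55 to 8.20) and 19.6% (9.82 to 33.1), and after thinning in 2.06% (1.16 to 3.38) and 10.2% (3.40 to 22.2). Single cells held much of the RNA: 3 uninjured cells carried 12, 10 and 9 of the 47 UMIs, and 1 injured cell 40 of the 155. Without the uninjured cell of 12 UMIs the log2 ratio was -3.03 in place of -3.40, and without the injured cell of 40 UMIs it was -3.73. The gene lies on chromosome 16 from 85793827 to 85803113, minus strand.

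As a measure of free RNA, 5 injured cells carried at least 2 of 5 T cell markers, with 834 to 6332 UMIs and a median of 5387. None of them held Mmp12, Mmp14, Adamts1, Adam17, Plau or Plaur (0 to 52.2% of 5 cells). Adam8 and Timp2 were each seen in 1 of the 5 and Adam10 in 2; T cells can express Adam genes themselves. With 5 cells the limit on free RNA is loose.

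Cells were next divided by depth and by Malat1, a nuclear RNA. Deep cells had at least 5000 UMIs (144 injured, 4 uninjured); shallow cells were Malat1-rich where Malat1 took at least 1% of UMIs (91 and 17 cells) and Malat1-poor otherwise (492 and 30 cells). Malat1 was at 0.5% to 2% of UMIs, near the divide, in 59 injured and 1 uninjured shallow cells. Deep cells held 79.9% of injured and 41.1% of uninjured UMIs, so the injured sums above follow the deep cells. Of the 4 deep uninjured cells 1 was rich in haemoglobin, with 10194 of its 11100 UMIs. That lowers the uninjured deep level of most other genes.

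Across these classes the 9 genes did not share one pattern in the injured library. Mmp12 was at 147 CPM (133 to 161) in deep cells, 51.1 CPM (23.4 to 96.9) in the Malat1-rich class and 47.5 CPM (31.3 to 69.1) in the Malat1-poor class. The lower pair cannot be told apart, and both intervals lie under that of deep cells. Of the 434 deep UMIs, 3 cells held 147, 65 and 55, so the deep level rests largely on them. The intervals do not cover such spread between cells. Timp2 was ordered 915 CPM (880 to 950) in deep, 714 CPM (646 to 787) in Malat1-poor and 380 CPM (295 to 483) in Malat1-rich cells, with no overlap of intervals. Plau had its lowest level in Malat1-rich cells, 62.4 CPM (31.2 to 112), against 128 CPM (101 to 161) in Malat1-poor and 163 CPM (148 to 178) in deep cells; the interval overlaps that of Malat1-poor cells and not that of deep cells. Plaur had its lowest level in Malat1-poor cells, 50.99 CPM (34.1 to 73.2), against 124.8 CPM (78.2 to 189) in Malat1-rich and 128 CPM (116 to 142) in deep cells, whose intervals both lie above it.

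Adam8 was highest in Malat1-rich injured cells, at 124.8 CPM (78.2 to 189), then 47.4 CPM (39.9 to 55.9) in deep and 17.6 CPM (8.43 to 32.3) in Malat1-poor cells, with no overlap between neighbours. Mmp14 ran in the same order, 79.4 CPM (43.4 to 133), 33.5 CPM (27.2 to 40.8) and 19.3 CPM (9.65 to 34.6), with overlap between the last pair. Adam10 was at 131 CPM (82.7 to 196), 68.1 CPM (59.0 to 78.2) and 73.8 CPM (53.2 to 99.8), and Adam17 at 182 CPM (124 to 256), 102 CPM (91.1 to 114) and 82.6 CPM (60.7 to 109.9), in Malat1-rich, deep and Malat1-poor cells. Adamts1 was at 102 CPM (60.5 to 161), 41.7 CPM (34.6 to 49.7) and 24.6 CPM (13.5 to 41.3) in the same order. The 5 metalloproteinases other than Mmp12 thus had their highest point value in Malat1-rich cells. The median mitochondrial share of UMIs was 10.7% in these cells, 2.36% in deep and 0.50% in Malat1-poor injured cells; its part in the order was not tested.

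**Figure D2:**
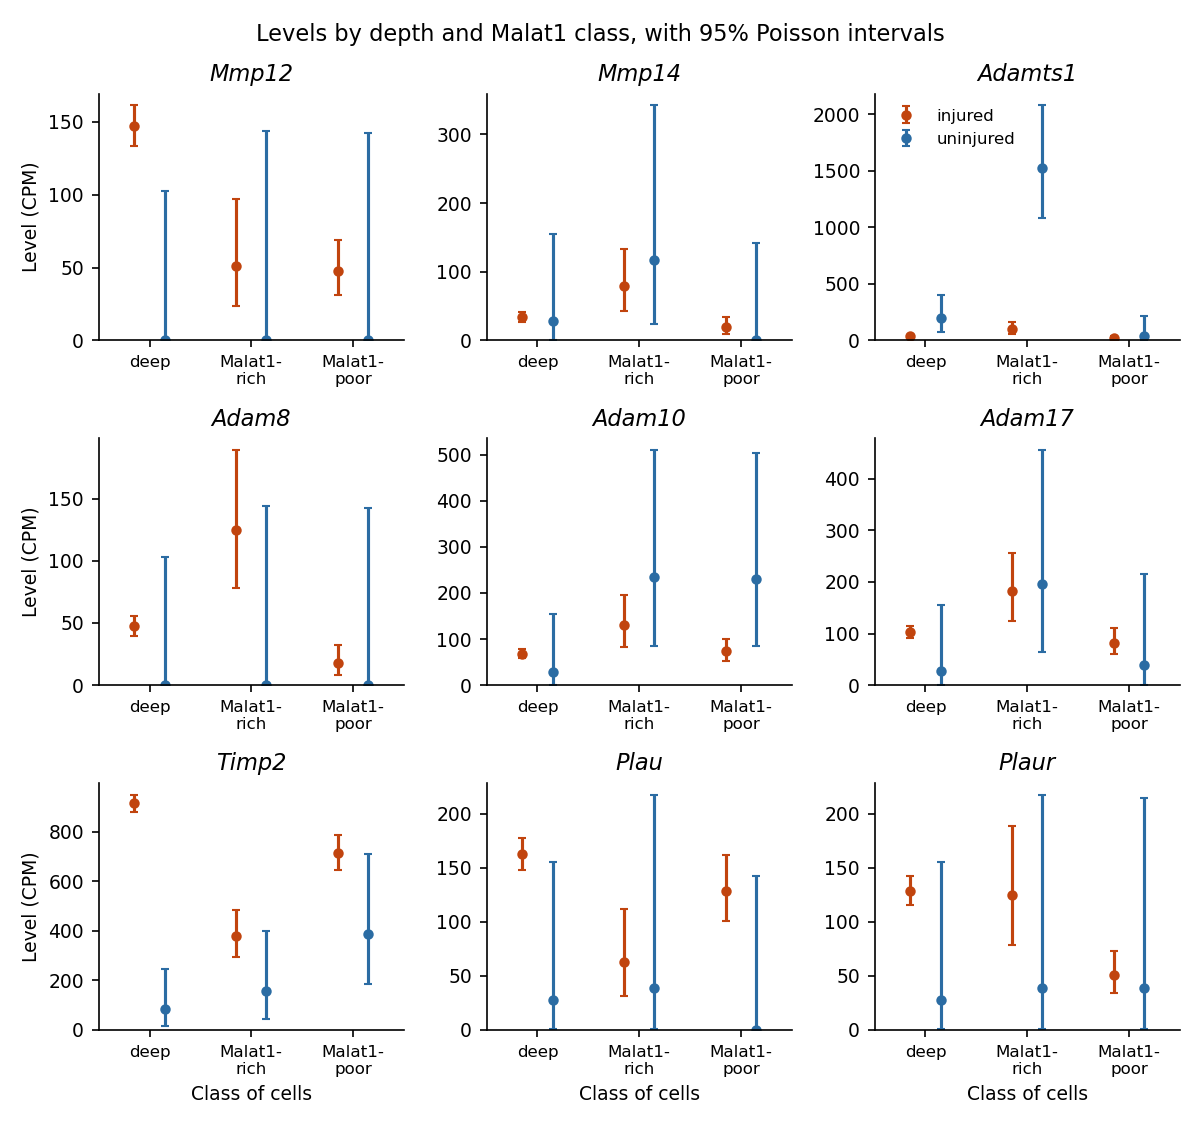
Level of each gene in CPM in deep, Malat1-rich and Malat1-poor cells of the injured (red) and uninjured (blue) libraries, with exact 95% Poisson intervals; each panel has its own axis from 0. Uninjured intervals are wide because a class holds 4 to 30 cells, except that Adamts1 stands at 1523 CPM in uninjured Malat1-rich cells.

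Set against the uninjured cells of the same class, Adamts1 was lower after injury in deep cells (41.7 against 195 CPM, 7 uninjured UMIs in 1 cell) and in Malat1-rich cells. In the latter it was at 102 against 1523 CPM (1083 to 2082), a ratio of 0.067 (0.036 to 0.120), and 8 of the 17 uninjured cells held 39 UMIs. In Malat1-poor cells the ratio was 0.639 (0.0972 to 27.0) on 1 uninjured UMI, so no direction can be read there. Of the uninjured Malat1-rich cells, the 8 with Adamts1 had a median of 1925 UMIs and spent a median of 2.00% of them on 8 genes that respond to cell dissociation, against 1090 UMIs and 1.15% in the 9 without it. These 8 cells held 1 UMI of the endothelial markers, and P2ry12 or Tmem119, which mark microglia, were seen in 5 and 6 of them. The 9 cells without Adamts1 held 0 endothelial UMIs, with P2ry12 seen in 4 and Tmem119 in 6 of them. Between the libraries the 8 dissociation genes summed to 4557 CPM in injured and 21278 CPM in uninjured Malat1-rich cells. In the same cells the homeostatic microglial markers summed to 2565 and 15305 CPM and the astrocyte markers to 494 and 3241 CPM. Only 1 of the 6 astrocyte markers, Slc1a3, was seen in the uninjured Malat1-rich cells, and 3 of the 6 in the injured ones. The part of these differences in the Adamts1 ratio was not tested.

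Timp2 was higher in injured deep cells by a ratio of 10.96 (3.75 to 53.2). Its ratio was 2.43 (0.908 to 9.19) in the Malat1-rich and 1.85 (0.997 to 3.89) in the Malat1-poor class, where both intervals hold 1. Adam10 was lower in Malat1-poor cells, 73.8 against 231 CPM, a ratio of 0.32 (0.14 to 0.92), and had a ratio of 0.56 (0.22 to 1.67) in Malat1-rich cells. In deep cells its point value turned to 2.45 (0.43 to 97.1) on 1 uninjured UMI. Plau had a ratio of 5.84 (1.04 to 231) in deep cells and 1.60 (0.23 to 68.8) in Malat1-rich cells. In Malat1-poor cells no uninjured Plau UMI was found, and the lower end of the interval of the ratio, 0.88, lies under 1. In deep cells the injured level of Mmp12 was 1.76 times what 3 uninjured UMIs would give, and the lower end of the interval of the ratio was 1.43. The deep uninjured total of 35936 UMIs includes the 11100 of the haemoglobin-rich cell. That raises this lower end and the 1.04 of Plau. The intervals were not computed without that cell, so whether they would still exclude 1 is not known. In the shallow classes its injured level lies under the 117 and 116 CPM that 3 uninjured UMIs would give. For Adam8, with no uninjured UMI in any class, the interval of the ratio reached under 1 in each class (its lower end was 0.46 for deep cells, 0.80 for the Malat1-rich class and 0.10 for the Malat1-poor class), so no direction can be read within a class. By the ratio of 1.5 with 10 CPM added, 7 of the 9 genes counted as higher in deep cells (49.8% of all compared genes), 4 in the Malat1-rich class (36.4%) and 6 in the Malat1-poor class (47.8%). The lower calls were 1 (15% of all), 2 (30.7%) and 1 (19.8%). Many of these calls rest on 0 or 1 uninjured UMI.

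Depth sets how often a gene is seen, and the levels changed less than the shares. From injured cells under 1000 UMIs to those of 15000 and over, the share with Timp2 went from 28.7% to 99.0% and its level from 592 CPM (497 to 700.3) to 940.3 CPM (903 to 979). Adam17 was seen in 4.59% and 81.8% of these cells at 78.4 CPM (46.4 to 124) and 97.2 CPM (85.5 to 110.2), and Adam8 in 1.83% and 44.4% at 34.8 CPM (15.04 to 68.6) and 47.0 CPM (39.0 to 56.3). For Plau the share went from 4.59% to 65.7% and the level from 69.7 CPM (39.8 to 113) to 175 CPM (160 to 193). Adamts1 did not run with depth: 45 injured cells of 5000 to 15000 UMIs held 1 UMI, at 2.36 CPM (0.060 to 13.2), against 48.2 CPM (40.0 to 57.6) in the 99 deeper cells and 48.5 CPM (31.4 to 71.6) in cells of 1000 to 5000 UMIs. Mmp12 was highest in the 5000 to 15000 range, at 248 CPM (203 to 300.5), where 5 of 45 cells held 105 UMIs. Most of these lay in cells of 11817 and 11270 UMIs, which held 65 and 34, so this level rests on them.

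Mmp12 RNA was gathered in few injured cells. Of its 39 holders 22 were deep, 4 Malat1-rich and 13 Malat1-poor, and the deep holders carried 92.3% of its UMIs. The cell with most held 147 UMIs, 0.44% of all its RNA, the next held 65 and 55, and these 3 carried 56.8% of the library's Mmp12. In all, 9 cells held 10 UMIs or more, each of them deep, and 14 held a single UMI. A shallow Malat1-poor cell of 2828 UMIs held 9 Mmp12 UMIs, at 3182 CPM within that cell, beside 4386 CPM in the cell with 147. Without the cell of 147 UMIs the log2 ratio of Mmp12 to the uninjured library was 3.29 in place of 3.78.

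Plau was spread more widely. It was held by 130 injured cells, of which 75 were deep, 9 Malat1-rich and 46 Malat1-poor, and its 3 leading cells, with 38, 37 and 30 UMIs, carried 18.6% of its UMIs. A single UMI was all that 58 of the holders had. Deep holders of either gene were deeper than the other deep cells. The medians were 28019 UMIs for the 22 Mmp12 holders and 18775 for the other 122, and 25055 for the 75 Plau holders and 14051 for the other 69.

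**Figure D3:**
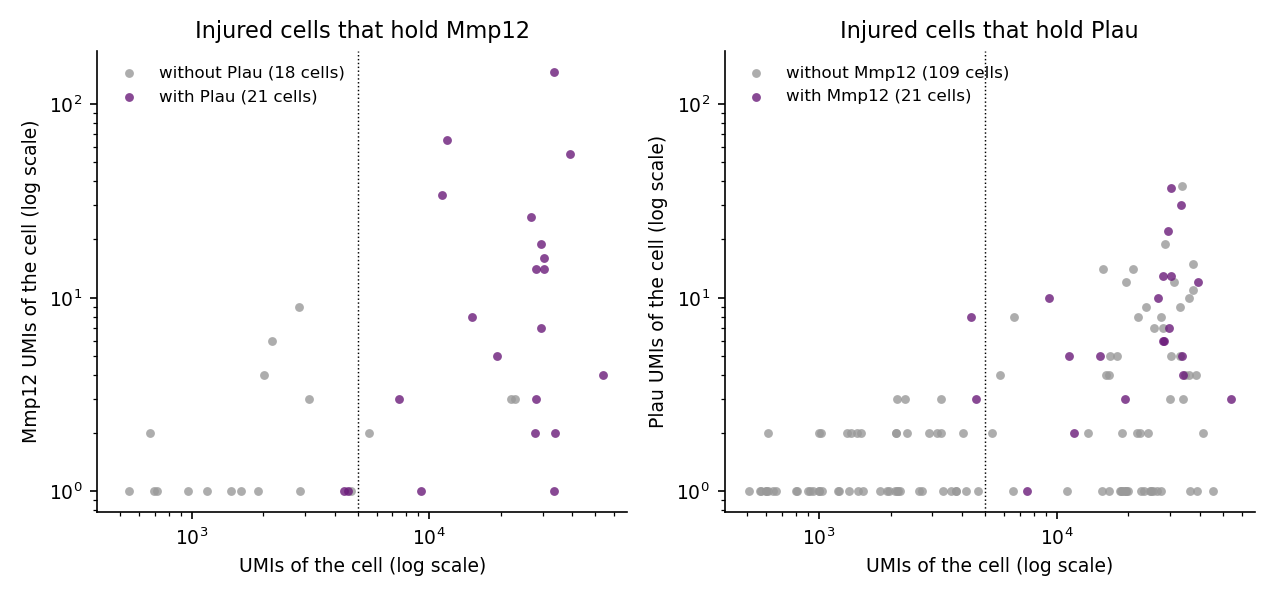
UMIs of Mmp12 (left) and Plau (right) in each injured cell that holds the gene, against the total UMIs of the cell, both on log axes; the dotted line marks 5000 UMIs. Purple points hold both genes (21 cells), and right of the line 19 of the 22 Mmp12 points are purple.

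Most deep cells with Mmp12 also held Plau. Among deep injured cells 19 of the 22 Mmp12 holders had Plau, 86.4% (65.1 to 97.1), against 56 of the other 122, 45.9% (36.8 to 55.2). In the other direction, 25.3% of Plau holders had Mmp12, against 4.35% of deep cells without Plau. With each deep cell thinned to 5000 UMIs, 11 of 15 Mmp12 holders had Plau, 73.3% (44.9 to 92.2), against 28.7% (21.1 to 37.3) of 129 others. Among cells over 15000 UMIs the shares were 88.2% (63.6 to 98.5) and 61.0% (49.6 to 71.6), and these intervals overlap. In shallow cells 2 of 17 Mmp12 holders had Plau. The level of Plau was 353 CPM in deep Mmp12 holders and 119 CPM in the other deep cells, a ratio of 2.97 (2.46 to 3.57).

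Adam8 also went with Mmp12. After thinning it was seen in 8 of 15 deep Mmp12 holders, 53.3% (26.6 to 78.7), and in 11.6% (6.66 to 18.5) of the others, and its level was 83.7 against 39.1 CPM, a ratio of 2.14 (1.47 to 3.08). Among cells over 15000 UMIs the shares were 52.9% (27.8 to 77.0) and 42.7% (31.8 to 54.1), which overlap, and the ratio was 1.61 (1.05 to 2.42). Timp2 was at 1157 and 859 CPM, a ratio of 1.35 (1.23 to 1.47). Mmp14, Adam10, Adam17 and Plaur had ratios of 0.84 to 1.10 between Mmp12 holders and other deep cells, with intervals that hold 1, and Adamts1 had 1.41 (0.90 to 2.15). The level of Adamts1 differed between cells with and without Plau, at 62.2 and 6.42 CPM, a ratio of 9.69 (4.56 to 24.6), though 3 cells held 56.0% of its UMIs in the Plau holders. With deep cells thinned to 5000 UMIs, Adamts1 was seen in 14.6% (6.07 to 27.8) of Plau holders and 4.17% (1.15 to 10.3) of the others. Among cells over 15000 UMIs these shares were 32.3% (21.2 to 45.1) and 11.8% (3.30 to 27.5). Both pairs of intervals overlap. Over the 144 deep cells the highest Pearson r of log-normalized values among pairs of the 9 genes was 0.41, between Mmp12 and Plau, then 0.35 between Mmp12 and Adam8 and 0.28 between Plau and Plaur. These cells share 1 library and differ in depth.

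Among 8141 genes seen in at least 10% of deep injured cells, 2.98% were higher and 9.57% lower in Mmp12 holders by the ratio of 1.5 with 10 CPM added. The 5 with the highest ratio on that scale were Fabp4, a fatty acid carrier (5.66, 3.75 to 8.59), Otud1, a deubiquitinase (4.87, 3.01 to 7.92), Slc6a8, the creatine transporter (4.73, 2.95 to 7.60), Plau, and the intermediate filament gene Nes (3.56, 2.21 to 5.69). Few cells carried these: 3 of the Mmp12 holders had 93.0% of the holders' Fabp4 UMIs, 79.5% of Otud1 and 80% of Nes. Without the 3 cells with most Mmp12 their ratios were 4.23 for Fabp4, 5.76 for Otud1, 3.21 for Slc6a8, 2.71 for Plau and 3.97 for Nes. By Pearson r over the 144 deep cells the genes most like Mmp12 were the lipid scavenger receptor gene Cd36 (0.43), Plau (0.41), Slc6a8 (0.41), Arhgap10 (0.39) and the secretory kinase gene Fam20c (0.39). Cd36 rested on few cells: without the 3 leading Mmp12 cells its ratio went from 4.95 (2.33 to 10.7) to 2.41 (0.83 to 6.28).

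For Plau, 3.49% of the same genes were higher and 4.25% lower in holders. Mmp12 led, at 229 against 7.34 CPM, a ratio of 31.1 (15.7 to 72.6), though 3 cells held 62.7% of its UMIs in the Plau holders. Its ratio was 22.9 (10.4 to 62.9) among cells over 15000 UMIs and 20.4 (10.2 to 47.8) without the 3 cells with most Plau. The cytokine gene Tnf followed at 266 and 22.0 CPM, a ratio of 12.1 (8.03 to 19.0), then the chemokine gene Cxcl1 (6.45, 4.96 to 8.53), Adamts1 and Csf1, the growth factor of macrophages (4.78, 3.24 to 7.29). Tnf was seen in 29 of 75 Plau holders and in 10 of 69 other deep cells, and within cells over 15000 UMIs its ratio was 12.2. The genes most like Plau by Pearson r were Naa20, an acetyltransferase subunit (0.53), the chemokine gene Cxcl14 (0.51), the lipase gene Lpl (0.50), the potassium channel gene Kcnn4 (0.49) and the myosin gene Myo1e (0.48). Lpl was at 1295 CPM in Plau holders and 366 CPM in other deep cells, a ratio of 3.54 (3.18 to 3.94), and Spp1, which encodes osteopontin, had a ratio of 2.78 (2.71 to 2.85). Of the 10 lipid-laden phagocyte markers 4 were higher and none lower in Mmp12 holders, and 3 were higher and none lower in Plau holders. They were Spp1, Gpnmb, Lgals3 and Lpl for Mmp12, at ratios of 1.86, 2.06, 2.46 and 1.86. For Plau they were Spp1, Lpl and Lgals3, while Gpnmb had 0.90 (0.84 to 0.95).

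**Figure D4:**
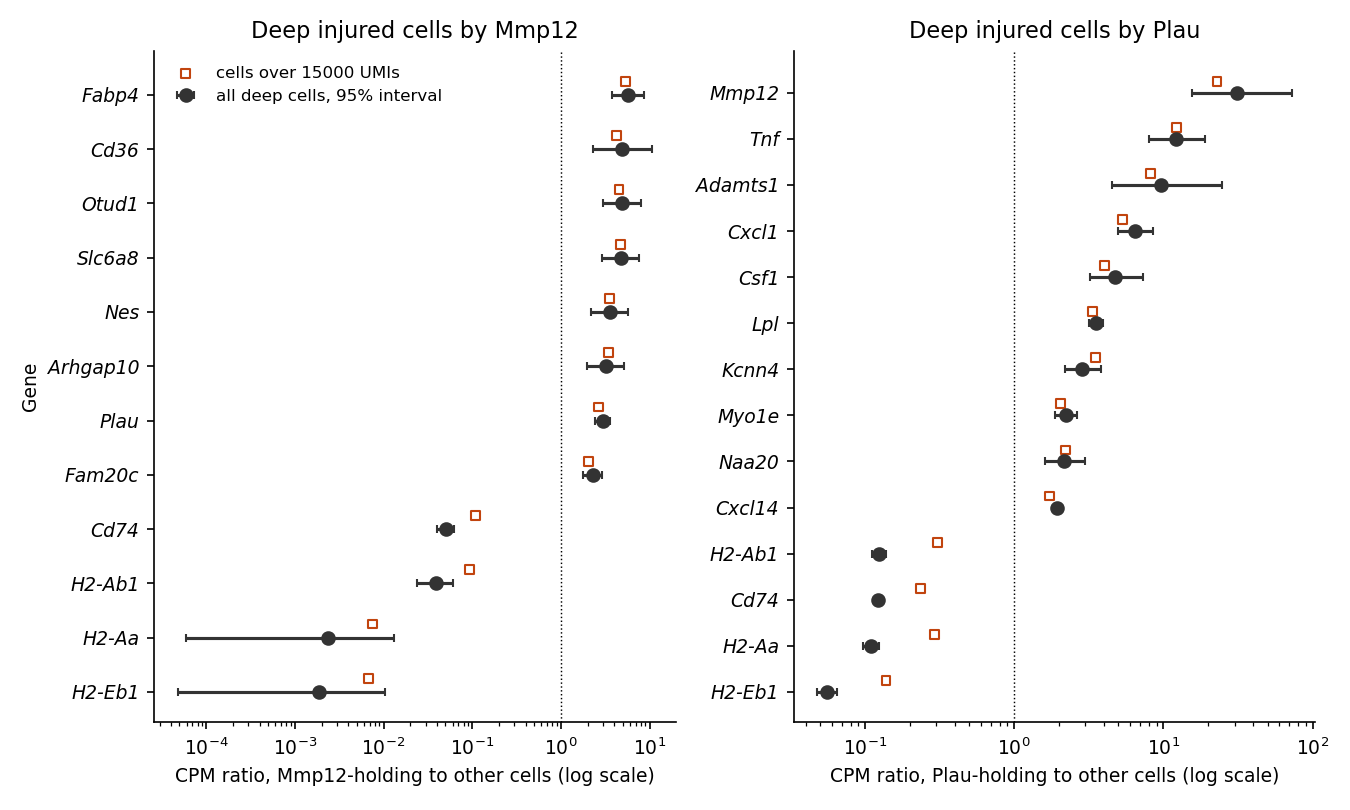
Ratio of CPM between deep injured cells that hold Mmp12 (left) or Plau (right) and deep cells that do not, on a log axis with exact 95% intervals (black); red squares give the ratio among cells over 15000 UMIs. Genes are those named by ratio or by Pearson r, and the 4 MHC class II genes, which lie far below 1 in both panels.

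Of the 5 genes with the lowest ratio in holders, 4 were MHC class II genes for Mmp12 and the same 4 for Plau, beside Ccl2 and Plbd1. Class II genes encode the molecules that present antigen to helper T cells, and they were picked after their values had been seen. H2-Eb1 was at 1.82 CPM in deep Mmp12 holders (1 UMI) and 965 CPM in the other deep cells, and H2-Aa at 1.82 and 768 CPM. Cd74, the invariant chain, was at 160 CPM and 3189 CPM, 19.9-fold lower in holders (16.15 to 24.9). In Plau holders Cd74 was at 719 against 5886 CPM, 8.19-fold lower (7.72 to 8.69), and H2-Eb1 at 108 against 1943 CPM. The 8 homeostatic microglial markers took a median of 0.534% of UMIs in Mmp12 holders and 0.529% in the other deep cells, and 0.573% and 0.478% for Plau. Of these 8, 3 were lower and 0 higher in Mmp12 holders, and 0 passed either way in Plau holders. Of the monocyte markers Ly6c2, Ccr2, Plac8 and Chil3 were at 0 in deep Mmp12 holders, and Chil3 was at 0 in all deep injured cells. Of the 8 neutrophil markers S100a9, Retnlg and Ngp were at 0 in all deep injured cells, and Camp and Ltf in the holders of either gene.

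The class II RNA lay mostly in 17 deep injured cells in which 4 class II genes took 1.05% to 12.8% of UMIs; these held 85.7% of the class II UMIs of all deep cells. No Mmp12 UMI and no Adamts1 UMI was found in the 17 cells (0 to 16.6 CPM for each), against 159 CPM (144 to 175) and 45.0 CPM (37.4 to 53.7) in the other 127. The share of cells with Mmp12 was 0% (0 to 19.5) in the 17 and 17.3% (11.2 to 25.04) in the 127. For Adamts1 the shares were 0% (0 to 19.5) and 20.5% (13.8 to 28.5). Both pairs of intervals of the shares overlap, so by cell a lower share in the 17 cannot be told for either gene. Plau was at 22.5 CPM (7.32 to 52.6) and 174 CPM (159 to 190), Adam8 at 4.51 CPM (0.11 to 25.1) and 50.9 CPM (42.8 to 60.1), and Timp2 at 262 CPM (199 to 338) and 968 CPM (931 to 1005). Adam10, Adam17 and Plaur had overlapping intervals, at 72.2 and 67.7 CPM, 117 and 101 CPM, and 104 and 130.3 CPM, and Mmp14 was at 54.1 CPM (28.0 to 94.5) and 31.9 CPM (25.5 to 39.3). The 17 cells were shallower, with a median of 12636 UMIs against 20903. Over all injured cells of 5000 to 15000 UMIs, Adamts1 was at 2.36 CPM and Mmp12 at 248 CPM. The part of depth was not tested. The 17 cells also carried Ccr2, a receptor of recruited monocytes, at 171 against 2.20 CPM, and the border macrophage marker Mrc1 at 203 against 4.03 CPM, while P2ry12 was at 45.1 and 39.5 CPM. When these cells were left out, the ratio of Cd74 moved toward 1, from 0.050 (0.040 to 0.062) to 0.26 (0.21 to 0.33) for Mmp12 holders and from 0.12 (0.12 to 0.13) to 0.30 (0.26 to 0.33) for Plau holders.

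**Figure D5:**
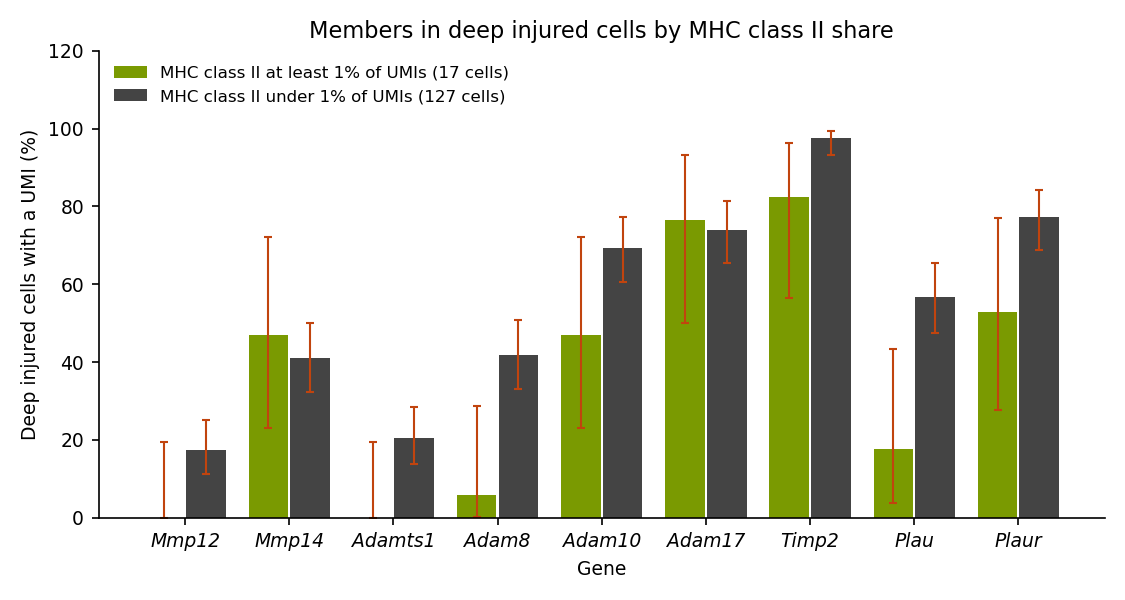
Share of deep injured cells with at least 1 UMI of each gene, in the 17 cells whose MHC class II genes took at least 1% of UMIs (green) and the other 127 (dark grey), as bars from 0 with exact 95% Clopper-Pearson intervals (red). Mmp12 and Adamts1 are at 0 in the 17 cells, with intervals that overlap those of the other 127. Mmp14 and Adam17 are at 47.1% and 76.5% in the 17 cells, against 40.9% and 74.0%.

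The wider protease network was read from a list of 55 further genes, of which 44 had a UMI and 19 were seen in 5% or more of either library's cells. Of these 19, 7 were higher and 3 lower by the same rule, and the median log2 ratio was 0.25. Over all 6680 genes that passed the filter of 5%, 30.3% were higher and 25.3% lower. Other metalloproteinases were scarce: of 15 further Mmp genes 5 had no UMI at all, including Mmp10 and Mmp28, and none had more than 23 injured or 2 uninjured UMIs. Mmp9, the gelatinase of neutrophils and activated macrophages, had 1 injured and 0 uninjured UMIs. Timp1 had 3 injured and 0 uninjured UMIs, and Timp3 had 6 and 1.

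In the plasminogen system the substrate gene Plg had no UMI in either library and Plat, the other activator, had 11, all injured. Anxa2, which binds plasminogen at the cell surface, was at 154 CPM against 11.4 CPM, a ratio of 13.5 (2.42 to 535) on 1 uninjured UMI, while its partner S100a10 was at 34.3 and 57.1 CPM, a ratio of 0.60 (0.25 to 1.88). Serpine2, an inhibitor of urokinase and thrombin, was 1.95-fold higher (1.32 to 3.02), and Lrp1, which clears protease and inhibitor complexes, 1.73-fold (1.10 to 2.88). Within deep injured cells Serpine2 was at 651 CPM in Plau holders and 453 CPM in the rest, a ratio of 1.44 (1.296 to 1.60).

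Among partners of the Adam enzymes, Tspan14, a tetraspanin that escorts Adam10, was at 38.1 and 103 CPM, 2.70-fold lower after injury (1.21 to 5.27). Tspan5, of the same group of tetraspanins, had a ratio of 0.99 (0.17 to 40.2). Frmd8, a partner of the Adam17 complex, had a ratio of 0.47 (0.18 to 1.78) and Furin, which activates precursors of these enzymes, 0.81 (0.43 to 1.70); both intervals hold 1. Sdc4, a heparan sulfate proteoglycan of the cell surface, had a ratio of 4.19 (1.63 to 15.4), and Itgb2, an integrin chain, 2.35 (1.19 to 5.46). Adam9 and the heparanase gene Hpse had no uninjured UMI, and their injured levels of 28.1 and 22.2 CPM lie under the 34.3 CPM floor, so no direction can be read although both count among the 7.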

How the data were processed

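Cells of dissected and dissociated optic nerve were captured with 10x Genomics 3' chemistry, version v2, per the series' design text. Genome build mm10 and the tools Seurat 4.0.3, Cell Ranger 1.3 and bcl2fastq 2.17.1.14 are named, per the submitters' processing notes. No source used here names the annotation release. The authors deposited 1 table of raw UMI counts per gene and cell, not normalized, with a line giving each cell's condition. It holds 778 cells with 226 to 6089 genes seen, chosen by the authors as macrophages or microglia.

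From these counts UMIs were summed per library or class and scaled to CPM, with exact Poisson, conditional binomial (ratios) and Clopper-Pearson (shares) 95% intervals. A ratio of 1.5 with 10 CPM added was the rule of size. Intervals cover counting error only, since there is 1 library per group. Thinning drew UMIs without replacement. No doublet caller was run; 99 injured and 0 uninjured cells had over 15000 UMIs. The 26 rows with names turned into dates stayed in totals and out of comparisons. The 9 genes and the lists were chosen with earlier results of these data known. Named genes were the 9 genes, the wider list, and per holder comparison the 5 with the highest ratio and the 5 with the highest Pearson r, without mitochondrial, ribosomal and predicted genes. The rule was tested on simulated counts. Python 3.11.15, numpy 2.4.6, scipy 1.17.1 and pandas 2.3.3 were used. Some items of the lists are not reported here. Positions are from GENCODE vM21 (mm10).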

Additional observations from a re-analysis of the deposited data

How the results depend on the processing

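No paired analysis was possible because each group is 1 library and the labels give no replicate numbers; no library could be left out. Under other pseudocounts, equal weights, centring and left-out cells none of the 7 genes called higher or lower changed sign. Mmp12 and Adam8 had 0 uninjured UMIs, so apart from centring their log2 ratio could not turn negative. Mmp14 passed as lower with equal weights (-0.67) and in cells under 5000 UMIs (-0.65), Adam17 as higher without the uninjured cell that held most (0.98), and Plaur no longer passed with equal weights (0.51). With pseudocounts of 50 and 1 CPM Mmp12 ran from 1.82 to 7.001 and Adam8 from 0.95 to 5.57. Timp2 went to 1.21 with equal weights and 1.20 in cells under 5000 UMIs, and Adamts1 to -2.68 with a pseudocount of 50 CPM and -3.03 without the uninjured cell that held most. In the wider list the higher calls went from 7 to 12 without the uninjured cell with most UMIs of each gene, and the lower calls from 3 to 1 there, to 1 with a pseudocount of 50 CPM and to 7 with equal weights. The members called lower went from 1 to 0 in deep cells defined from 10000 UMIs, with all 9 genes then higher against 1 uninjured cell, the one rich in haemoglobin, from 2 to 1 in Malat1-rich cells and from 1 to 2 in Malat1-poor cells under that definition, and to 2 in Malat1-poor cells with deep from 3000 UMIs. Plau holders made up 52.1% of deep injured cells, 36.8% at 2 UMIs or more, 33.3% after thinning to 5000 UMIs and 65.7% in cells over 15000 UMIs. The alternatives over 15000 UMIs, without class II-rich cells and without the 3 leading Mmp12 cells were chosen after seeing the data. The causes were not tested. Uninjured depth limits the ratios between libraries.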
